A study of Mus musculus with 26 samples.

Results

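GABA-A receptor subunit genes were followed across 26 single mouse retinal amacrine cells, each hybridised to 1 Affymetrix Mouse 430 2.0 array. The 7 genes were Gabra2, Gabra3 and Gabra4 (alpha subunits), Gabrb1 and Gabrb2 (beta subunits) and Gabrg1 and Gabrg3 (gamma subunits). They were chosen from the 18193 genes the array measured, with earlier results of these data known, and leave out other measured subunit genes. Of 19 receptor subunit genes listed for the family, 15 had a probe set assigned to them alone and 4 were not analysed here. Amacrine cells, interneurons of the inner retina, mostly release GABA or glycine.

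Every cell carried a GFP reporter, driven by the Ndrg4 promoter (pNdrg4) or the Synapsin promoter (pSynapsin), that had been electroporated into the retina at P0 and by which the cell was picked. The promoter therefore set which amacrine cells could enter a group. The design text of the series names electroporation both in vivo and ex vivo, without saying which cells had which. The P5 cells comprised 10 with pNdrg4 and no culture stated, 5 with pNdrg4 after 5 days in culture and 4 with pSynapsin after 5 days in culture. The P8 cells, 2 with pNdrg4 and 2 with pSynapsin, had 8 days in culture. After 4 days in culture there were 2 pNdrg4 cells labelled P4 and 1 pSynapsin cell labelled E19, an age label that precedes the P0 electroporation given for the series. The labels state no strain, added genetic change or drug, and do not tie cells to animals or cultures. Each group was therefore treated as a single sample with no p-value. An SD is the spread over cells, and an interval of a share covers counting error alone.

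Values are signal intensities scaled to a trimmed mean of 500 on every array. A signal of 1000 or more counted as detection. Before differences were taken, signals under 200 were set to 200, a floor of 7.64 in log2. A gene was called higher or lower at a difference of 2 or more between group means on that scale, that is 4-fold. Genes detected per cell ranged from 1909 to 4180 with a median of 3253.5, and lay lowest in the P5 cells with no culture stated (median 2361.5). Of 5 amacrine marker genes, the homeobox gene Pax6 was detected in all 26 cells, Slc32a1 in 22, Tfap2b in 20, Tfap2a in 16 and Barhl2 in 10. In the 4 P5 pSynapsin cells Tfap2a and Tfap2b were each detected in 1 and Barhl2 in 0. Precision is limited by the number of arrays.

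GABA-A receptors are chloride channels built from several subunits, usually alpha subunits with beta subunits and a gamma subunit. GABA binds between alpha and beta subunits, the alpha subunit tunes affinity and kinetics, and the gamma subunit takes part in holding receptors at synapses and in benzodiazepine binding. In the inner retina, receptors with different alpha subunits lie at different synapses, and amacrine cells receive GABA from one another.

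The promoters of Gabra2 and Gabra3 are shown because these 2 alpha genes were the ones detected most often and shared 1 cell. With 6 and 8 positive cells, that count cannot tell exclusion from no relation. Both promoters are given as RefSeq windows on GRCm38.p6, written 5′ to 3′ on the gene's strand and ending at the base before the annotated start. For Gabra3 it is 1 of 2 annotated starts. The Gabra2 window is chr5:71095850-71096099, minus strand, and the Gabra3 window is chrX:72656920-72657169, minus strand. Capitals mark matches, on either strand, to TATAAA (the TATA box), GGGCGG (the GC box), CAGNTG (an E-box), GCCNNNGGC (the AP-2 motif) or CCAAT (the CAAT box).
Gabra2: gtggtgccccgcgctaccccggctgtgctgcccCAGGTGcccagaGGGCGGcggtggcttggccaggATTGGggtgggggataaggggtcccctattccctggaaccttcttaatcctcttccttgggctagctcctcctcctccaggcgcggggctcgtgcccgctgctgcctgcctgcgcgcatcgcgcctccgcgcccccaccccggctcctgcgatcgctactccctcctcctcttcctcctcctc
Gabra3: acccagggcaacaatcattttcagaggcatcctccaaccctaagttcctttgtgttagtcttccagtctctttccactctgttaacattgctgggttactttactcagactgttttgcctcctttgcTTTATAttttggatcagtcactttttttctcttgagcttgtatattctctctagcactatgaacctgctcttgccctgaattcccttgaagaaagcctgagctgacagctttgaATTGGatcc
Of the bases in the Gabra2 window 70% were G or C, with 18 CG dinucleotides. The Gabra3 window had 42.4% and 0 CG dinucleotides. Over 32851 windows of 250 bases the median was 52.4% with 6 CG dinucleotides, and the 5th and 95th percentiles were 34.8% and 73.6%. The Gabra2 window held an E-box whose first base lay 217 bases before the start, a GC box at 205 and a CAAT box on the other strand at 183. The Gabra3 window held a TATA box on the other strand at 123 and a CAAT box on the other strand at 9. No 2 of these matches overlapped. These motifs are common, since 12.4% of all windows held the TATA box, 32.7% the GC box, 44.8% the E-box, 13.7% the AP-2 motif and 33.8% the CAAT box on either strand. They are matches of letters only, and binding was not measured.

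The 7 genes were detected sparsely. Gabra3 and Gabrb2 were each detected in 8 of 26 cells (30.8%, exact Clopper-Pearson 95% interval 14.3% to 51.8%), Gabra2 in 6 (23.1%, 8.97% to 43.6%), Gabra4 and Gabrb1 in 2 each (7.69%, 0.946% to 25.1%), Gabrg1 in 1 (3.85%, 0.0973% to 19.6%) and Gabrg3 in 0 (upper limit 13.2%). In this order Gabrb2, Gabra3 and Gabra2 had intervals that overlapped widely. Of the 7 genes 6 were detected in at least 1 cell, where 55.9% of all 18193 genes were, and 1 in 0 cells, where 44.1% were. Detection in 2 or more cells was met by 5 of the 7 genes and 47.1% of all, in 6 or more by 3 and 28.9%, and in 8 or more by 2 and 22.8%. The 7 genes were chosen with earlier results of these data known, so these shares cannot show an excess over all genes. Of the other measured subunit genes only Gabrr1 was detected, in 1 cell. The heat map of signals by cell shows 8 cells with none of the 7 genes, 6 with Gabra3 alone, 2 with Gabra2 alone and 2 with Gabrb2 alone.

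**Figure D1:**
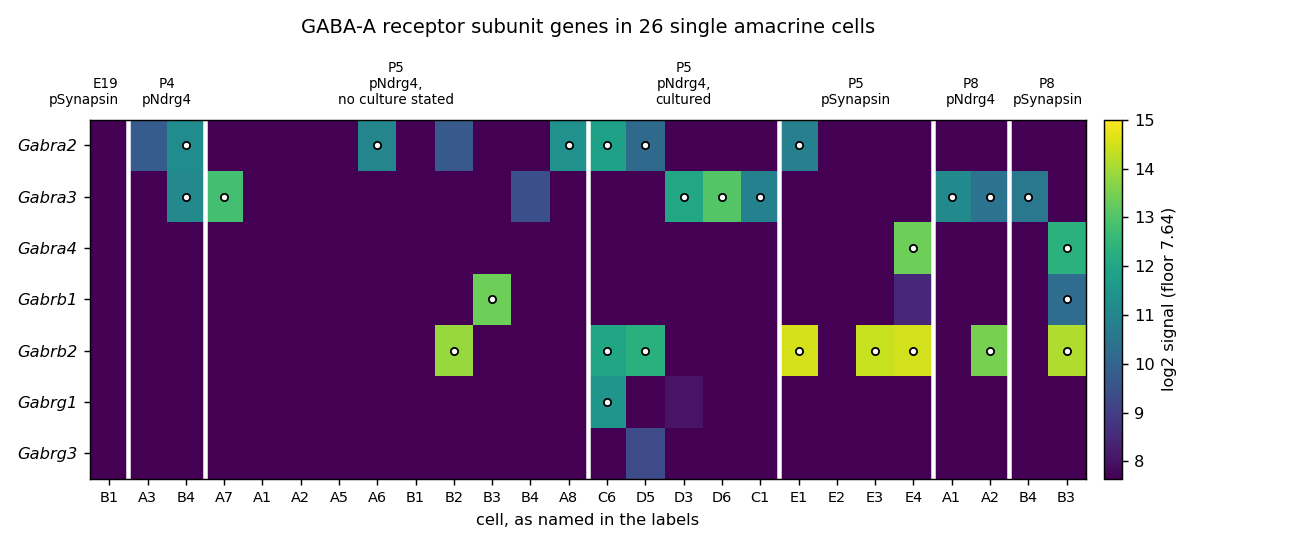
Log2 signal (colour, raised to a floor of 7.64) of the 7 subunit genes (rows) in 26 cells (columns, named as in the labels and split by group); white dots mark signals of 1000 or more. Colours compare cells within a row, not genes, and most entries lie at the floor.

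Among the alpha genes, Gabra2 was detected across 4 of the 7 groups. Its signals were 2385 in cell B4 of P4, 2025 and 2617 in cells A6 and A8 of the P5 group with no culture stated, 3714 and 1168 in cultured P5 pNdrg4 cells C6 and D5, and 1861 in P5 pSynapsin cell E1. Just below the detection level were P4 cell A3 at 887 and cell B2 with no culture stated at 828. In the 10 cells with no culture stated the lowest, median and highest signals were 8.80, 51.2 and 2617. Neither of the P8 groups had a cell above 200. So Gabra2 was high in single cells of both reporters and reached no more than 2 cells in any group. Gabra2 had 5 probe sets, and those not used were detected in 0 cells, with signals of 815 or less. Every detection of Gabra2 thus rested on the chosen probe set alone.

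Gabra3 was the alpha gene detected in the most cells. It read 2212 in P4 cell B4, 7158 in cell A7 with no culture stated, and 4144, 8307 and 1888 in cultured P5 pNdrg4 cells D3, D6 and C1. At P8 both pNdrg4 cells had it, A1 at 2295 and A2 at 1385, and so did pSynapsin cell B4 at 1536. All 4 P5 pSynapsin cells lay between 3.15 and 35.4, and the 10 cells with no culture stated had a lowest, median and highest signal of 5.00, 47.0 and 7158. Of its 8 cells 7 carried pNdrg4 and 1 carried pSynapsin. The highest undetected signal was 700, in cell B4 with no culture stated. Gabra3 had 2 probe sets, and the other was detected in 0 cells, with a highest signal of 297. Every detection of Gabra3 thus rested on the chosen probe set alone.

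Gabra4 was detected in P5 pSynapsin cell E4 at 10552.5 and in P8 pSynapsin cell B3 at 5164. All other cells lay at or below 103, so the gene separated 2 pSynapsin cells from the other 24. Its second probe set read 929 in the same P8 cell, short of the detection level, and was detected nowhere.

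Of the beta genes, Gabrb2 divided the cells most sharply. Its signals were 14959 in cell B2 with no culture stated and 4066 and 5117 in cultured P5 pNdrg4 cells C6 and D5. In the P5 pSynapsin group cells E1, E3 and E4 read 23817, 21456 and 23038, while cell E2 read 13.0. At P8 it read 11478 in pNdrg4 cell A2 and 17754 in pSynapsin cell B3, while the other cell of each group read 1.12 and 36.2. The other 18 cells lay at or below 128, so no cell fell between 128 and 4066. The strip plot of Gabra2, Gabra3 and Gabrb2 by group shows this gap beside the more even spread of the alpha genes.

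**Figure D2:**
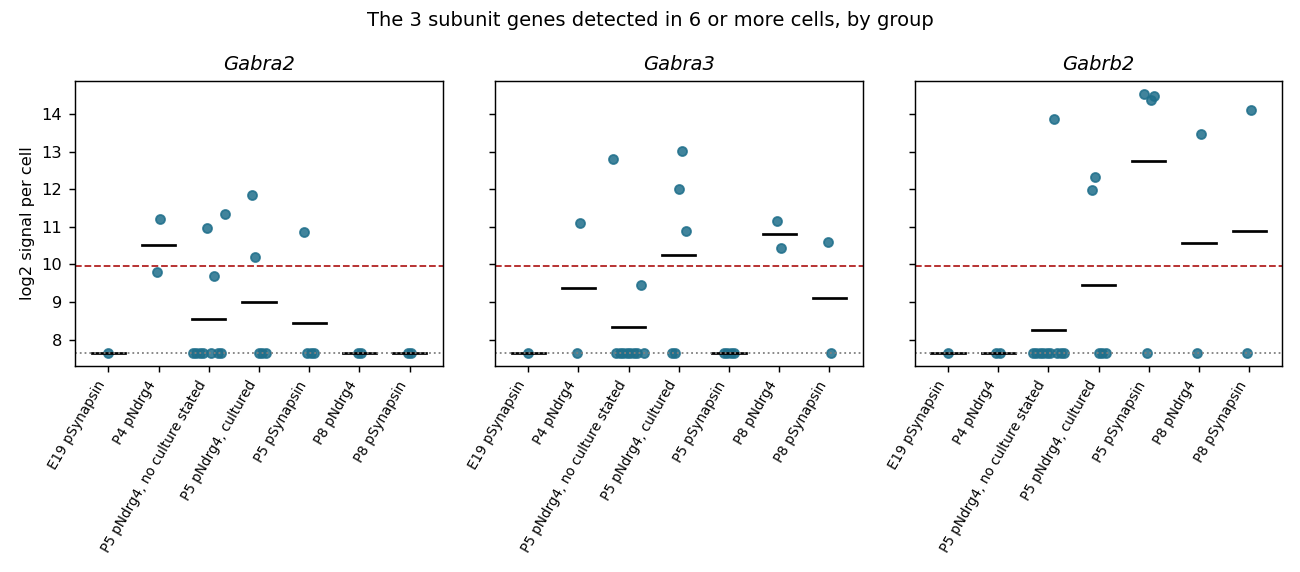
Log2 signal per cell (points, raised to a floor of 7.64, dotted line) of Gabra2, Gabra3 and Gabrb2 in the 7 groups; black bars are group means and the dashed line is the detection level of 1000. All 3 detected P5 pSynapsin cells lie at the top of the Gabrb2 panel and all 4 P5 pSynapsin cells lie at the floor for Gabra3.

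Gabrb2 had 5 probe sets, and 3 others besides the one used also gave detection. Probe set 1429685_at was past 1000 in 6 of the 8 cells, and 1428204_at and 1428205_x_at in 4 each, all within the same 8 cells. Probe set 1450319_at was detected in 0 cells, with a highest signal of 255. The 2 cells seen by the chosen probe set alone were cultured P5 pNdrg4 cell D5 and B2 with no culture stated. In B2 the other 3 probe sets read 18.9, 76.2 and 72.5. Detection of Gabrb2 in E3, E4, P8 cell A2 and P8 cell B3 thus rested on 4 probe sets each, and that in B2 and D5 on 1.

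**Figure D3:**
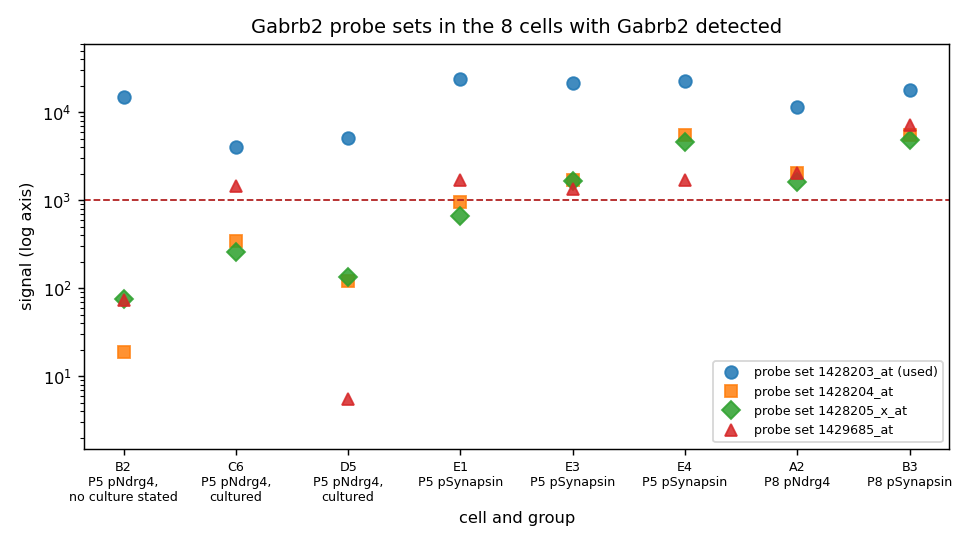
Signal (log axis) of 4 Gabrb2 probe sets in the 8 cells in which the chosen probe set, 1428203_at, was past the detection level of 1000 (dashed line). Levels of different probe sets are not comparable; cells E3, E4, A2 and B3 at the right had all 4 past 1000, and B2 and D5 had 1.

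Gabrb1 was detected in 2 cells, at 10661 in cell B3 with no culture stated and at 1249 in P8 pSynapsin cell B3. The next signal was 353, in P5 pSynapsin cell E4. A second probe set read 4923 in the P8 cell and 39.0 in the P5 cell, so the probe sets agreed on the P8 cell only. Gabra4 and Gabrb1 are neighbours on chromosome 5 in head-to-head orientation, and the RefSeq gene models overlap at their 5′ ends by 388 bases. They shared 1 of the 3 cells that had either gene, P8 pSynapsin cell B3.

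The gamma genes were each detected in at most 1 cell. Gabrg1 was detected at 2838 in cultured P5 pNdrg4 cell C6, and the next signal was 259 in cell D3 of the same group. The highest Gabrg3 signal was 660, in cultured P5 pNdrg4 cell D5, and none of its 4 probe sets was detected in any cell. Gabrr1, which encodes the rho1 subunit known from retinal bipolar cells, was detected in 1 cell, D5, at 2486. Gabra5, Gabra6, Gabrd, Gabre, Gabrp, Gabrq and Gabrr2 were detected in 0 cells, with highest signals between 102 and 272. At 26 cells, detection in 0 allows a share of up to 13.2%.

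At least 1 of the 7 genes was detected in 18 of 26 cells. There were 11 cells with 1 gene, 5 with 2 and 2 with 3, and 8 cells had none. An alpha gene was detected in 15 cells, a beta gene in 9 and a gamma gene in 1. Alpha and beta genes met in 6 cells: C6 and D5 (cultured P5 pNdrg4), E1 and E4 (P5 pSynapsin), A2 (P8 pNdrg4) and B3 (P8 pSynapsin). Cell C6, with Gabra2, Gabrb2 and Gabrg1, alone had a measured alpha, beta and gamma gene together. In 9 cells an alpha gene was detected without a beta gene, and in 3 a beta gene without an alpha gene. These counts leave out the 4 subunit genes that were not analysed.

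Different alpha genes met in a single cell. P4 cell B4, with Gabra2 at 2385 and Gabra3 at 2212, was the 1 cell of 15 with more than 1 alpha gene. The phi coefficient of detection, a correlation of presence and absence over the 26 cells, was -0.17 for Gabra2 with Gabra3. Gabra3 and Gabrb2 shared 1 cell, P8 pNdrg4 cell A2, with phi -0.26. Gabra2 and Gabrb2 shared 3 cells (C6, D5 and E1, phi 0.23), and both Gabra4 cells had Gabrb2 (phi 0.43). With so few positive cells these coefficients describe the arrays only, and the points share differences in depth between groups.

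The number of subunit genes per cell ran with the number of all genes detected. Over 26 cells Pearson's r was 0.46 and Spearman's rho 0.39, and without the 2 cells farthest from the median gene count they were 0.52 and 0.45. Cells with any of the 7 genes were 0 of 1 at E19, 1 of 2 at P4, 5 of 10 at P5 with no culture stated, 5 of 5 for cultured P5 pNdrg4, 3 of 4 for P5 pSynapsin, and 2 of 2 in both P8 groups. Median genes detected in those groups were 2306, 2985, 2361.5, 3256, 3472, 3781 and 3732.5. The part of depth in the subunit counts was not tested.

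**Figure D4:**
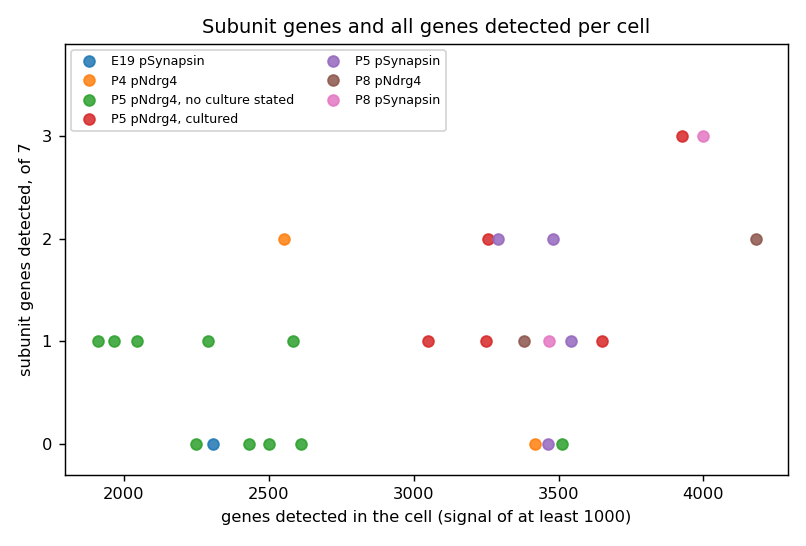
Number of the 7 subunit genes detected (y axis) against the number of all genes detected (x axis) in each of 26 cells, coloured by group. The 2 cells with 3 subunit genes had 3925 and 3998 genes detected, and cells with 0 or 1 subunit gene spread from 1909 to 3649.

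Of the pairs of a subunit gene with a transmitter gene, Gabra3 with the glycine transporter gene Slc6a5 had the highest phi. Slc6a5 was detected in 5 cells, D3 at 1755, D6 at 1345, P8 pNdrg4 cells A1 at 2399 and A2 at 1463, and P8 pSynapsin cell B4 at 1409, and all 5 had Gabra3 (phi 0.73). None of them had Gabra2, Gabra4 or Gabrb1, and 1 had Gabrb2. The count of shared cells was 3 with arrays scaled to their 75th percentile, and 1 at a detection level of 2000 or with the median over probe sets, under which Slc6a5 itself was left with 1 cell. Gad1, which encodes a GABA-synthesising enzyme, was detected in 11 cells, of which 4 had Gabra2, 2 Gabra3, 2 Gabrb2, 1 Gabrb1, 1 Gabrg1 and 0 Gabra4. Slc6a9, the other glycine transporter gene, was detected in 14 cells, of which 6 had Gabrb2, 5 Gabra3, 3 Gabra2, 2 Gabra4 and 1 Gabrb1. Its phi with Gabra3 was 0.12. Slc32a1, the vesicular transporter of both transmitters, was detected in 22 of 26 cells. These held all 8 cases of Gabra3 (phi 0.28), 7 of 8 of Gabrb2 (0.05) and 5 of 6 of Gabra2 (-0.02). Tfap2b, an AP-2 factor gene of amacrine cells, was detected in 20 cells but in 4 of the 8 with Gabrb2 (phi -0.43) and in 0 of the 2 with Gabra4.

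Candidates for likeness were 7377 genes detected in at least 3 but not all 26 cells. Those whose detection was most like each subunit gene were ranked by phi. For Gabrb2 they were Gas7 (phi 0.82, in 6 cells, all with Gabrb2), Atpaf1 (0.74, in 9 cells, 7 with Gabrb2) and Loxl1 (0.73, in 5 cells, all with Gabrb2). Thap11 came first for Gabra3 (0.74, in 9 cells, 7 with Gabra3), followed by Smim15 and Fundc1 (0.73, in 5 cells each, all with Gabra3). A phi this high was reached by 5 genes, Slc6a5 among them. Gabra2 was matched best by Cpne8, Sgpp1 and Uggt1 (0.78 each, in 4 cells, all with Gabra2). The top of 7377 candidates over 26 cells is a description of these cells.

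For culture, the 5 cultured P5 pNdrg4 cells were set against the 10 with no culture stated, same age and reporter. Whether the route of electroporation also differed between these groups is not stated. Gabra3 had the widest difference, with a mean log2 signal of 10.24 ± 2.49 (SD over 5 cells) against 8.34 ± 1.67 (10 cells), a difference of 1.90, and it was detected in 3 of 5 against 1 of 10 cells. Gabrb2 differed by 1.18 (2 of 5 against 1 of 10 cells), Gabrg1 by 0.84, Gabra2 by 0.44, Gabrg3 by 0.34, Gabra4 by 0 and Gabrb1 by -0.57. So 0 of the 7 genes reached 4-fold, against 8.84% of 8570 genes detected in 2 or more cells, a set that holds 5 of the 7 and leaves out Gabrg1 and Gabrg3. The Gabra3 difference was smaller than the SD over the cultured cells. The signals of all 7 genes overlapped between the groups. Their median difference was 0.44, and that of all genes was 0.31, or 0.08 after quantile normalization.

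Gabra3 lay close to the 4-fold line in this comparison. Leaving out C6 or D5, cultured cells without it, gave 2.55 each. Without cell A7 it was 2.40, and without B4 2.02, both from the cells with no culture stated. Without the cultured cell D6 it fell to 1.21. Gabrb2 fell to 0.46 without D5 and 0.55 without C6. Without C6, Gabra2 turned to -0.27 and Gabrg1 fell to 0.09. Gabrg3 was 0 without D5, and Gabrb1 was 0 without cell B3 with no culture stated. Cultured cells had more genes detected (3049 to 3925) than cells with no culture stated (1909 to 3513), and Gad1 was detected in 1 of 5 against 7 of 10 cells. Rod genes, by the summed signal of 8 measured genes, ran from 996 to 5911 against 322 to 61321. Single markers past 4-fold were Slc6a9 (2.59), Slc32a1 (2.18) and the neurofilament gene Nefm (2.41), higher in cultured cells, and Gad1 (-2.66), the rod gene Pdc (-2.76) and Vim (-3.00), lower. The part of these in the differences was not tested. In all comparisons, fewer cells with a transcript and less transcript per cell cannot be told apart in a mean, which is why cell counts stand beside each.

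**Figure D5:**
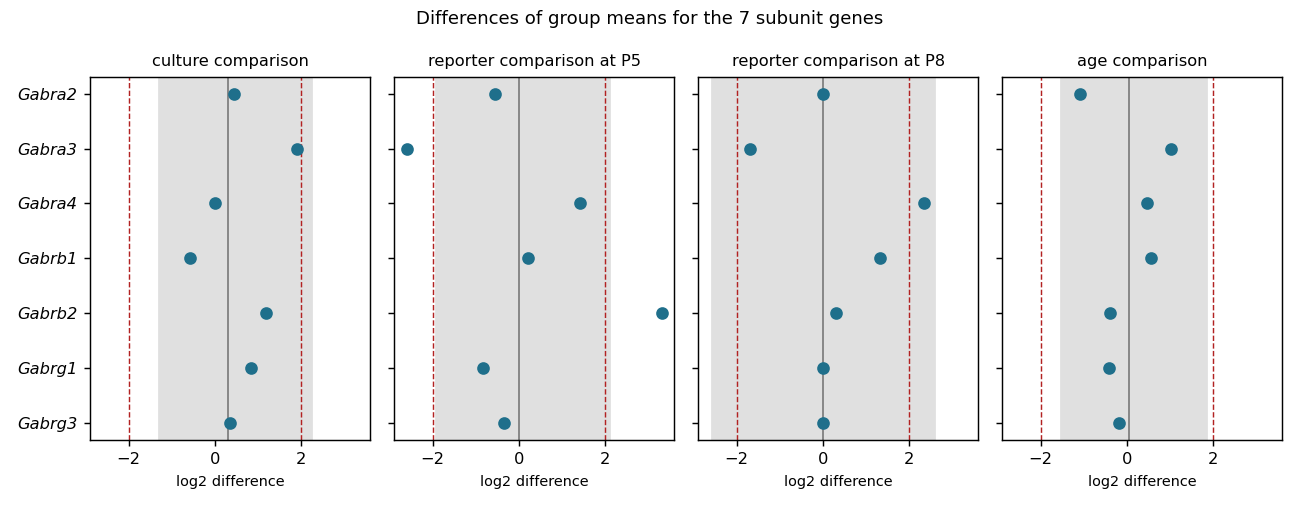
Difference of group means of log2 signal (points) for the 7 subunit genes in 4 comparisons: cultured minus no culture stated, pSynapsin minus pNdrg4 at P5 and at P8, and P8 minus P5. Grey bands span the 5th to 95th percentile of 8570 genes, grey lines their medians, and dashed lines mark 4-fold; Gabrb2 and Gabra3 lie outside the band at P5 on opposite sides.

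For the reporter at P5, the 4 pSynapsin cells were set against the 5 cultured pNdrg4 cells, same age and days in culture. Gabrb2 was higher in pSynapsin cells, at 12.77 ± 3.42 (SD, 4 cells) against 9.45 ± 2.47 (5 cells), a difference of 3.32, with detection in 3 of 4 against 2 of 5 cells. Gabra3 was lower, at the floor of 7.64 in all 4 pSynapsin cells against 10.24 ± 2.49, a difference of -2.60, with detection in 0 of 4 against 3 of 5 cells. These 2 genes of 7 passed 4-fold, where 10.3% of all genes did, 6.02% upward and 4.25% downward. The Gabrb2 difference was smaller than the SD over pSynapsin cells, and the Gabra3 difference was larger than the SD over pNdrg4 cells. The groups overlapped for both genes, since pSynapsin cell E2 read 13.0 for Gabrb2 and pNdrg4 cells C6 and D5 lacked Gabra3. Gabra4 differed by 1.43 through cell E4, Gabra2 by -0.55 (0.17 without pNdrg4 cell C6), Gabrg1 by -0.84, Gabrg3 by -0.34 and Gabrb1 by 0.20. The members' median was -0.34 and that of all genes 0.

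The Gabrb2 difference ranged from 2.73 to 5.03 when single cells were left out, and was 5.03 without E2 and 6.80 between group medians. For Gabra3 the call ended without pNdrg4 cell D6, at -1.90, and at a floor of 500, at -1.80. Markers of amacrine and other cell types also differed between these groups. Of 5 amacrine markers Tfap2a (-3.10) and Tfap2b (-3.55) were lower in pSynapsin cells by 4-fold, as were Gad2 (-2.45) and Nefm (-2.41, of 7 measured ganglion cell markers), and Vim was higher (2.19, of 9 Muller glia markers). The ganglion cell markers Pou4f3, Rbpms and Thy1 and the Muller glia markers Apoe and Aqp4 were detected in 0 of 26 cells. The summed signal of 8 measured rod genes was 996 to 5911 in cultured pNdrg4 cells and 7430 to 65766 in pSynapsin cells, 4 of them were higher by 4-fold and 0 lower, and Gnat1, a rod transducin gene, was detected in neither group. Cell E2, which lacked Gabrb2, had 6 rod genes detected, while E1, E3 and E4, which had it, had 4, 2 and 1. The part of these markers in the subunit differences was not tested.

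At P8 the same comparison rested on 2 cells a group. Gabra4 was higher by 2.35 in pSynapsin, detected in 1 of 2 against 0 of 2 cells, and it alone of the 7 genes passed 4-fold, where 21.0% of all genes did, 11.0% upward and 9.98% downward. That value was 0 without pSynapsin cell B3 and 4.69 without B4, so it was the Gabra4 signal of 1 cell. Gabrb1 differed by 1.32 through the same cell, 0 without it and 2.64 without B4. Gabra3 differed by -1.69 (1 of 2 against 2 of 2 cells), and by -0.22 without B3, -3.16 without B4, -1.32 without A1 and -2.05 without A2. Gabrb2 was detected in 1 of 2 cells of each reporter, with a difference of 0.31. That difference was past 4-fold without any 1 cell and had no stable direction, at 3.55 without B4, 3.24 without A2, -2.92 without B3 and -2.61 without A1. All 4 cells were at the floor for Gabra2, Gabrg1 and Gabrg3. Markers lower by 4-fold in pSynapsin cells were Tfap2b (-2.07), the bipolar cell gene Pcp2 (-2.07), Dkk3 (-3.29) and Nefm (-4.59), and their part was not tested. Whether the Gabrb2 differences at P5 and P8 differ from each other could not be tested with 1 sample a group.

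For age, P8 cells were set against cultured P5 cells within each reporter and both differences were averaged. Days in culture rose with age, and the 2 cannot be told apart. None of the 7 genes reached 4-fold, against 5.48% of all genes, 3.82% upward and 1.67% downward. Gabra3 was 0.56 higher at P8 in pNdrg4 cells (2 of 2 against 3 of 5 cells with detection) and 1.47 higher in pSynapsin cells (1 of 2 against 0 of 4), a mean of 1.01. Gabra2, detected in 3 of the 9 cultured P5 cells and 0 of the 4 P8 cells, had differences of -1.35 and -0.80, a mean of -1.08. Gabrb2 went in opposite directions, 1.12 in pNdrg4 and -1.89 in pSynapsin cells, a mean of -0.38. Gabrb1 was at 0.56, Gabra4 at 0.46, Gabrg1 at -0.42 and Gabrg3 at -0.17. Without P8 pSynapsin cell B3, Gabrb1 turned to -0.10 and Gabra4 to -0.72. Gabrb2 turned to 1.08 without P8 pNdrg4 cell A1, to 1.23 without P8 pSynapsin cell B4 and to 0.72 with the median over its probe sets. Each of these mean differences was smaller than the SD over cells of at least 1 group in it. The Muller glia marker Car2 was higher with age by 2.75. Rod genes moved with age too: 5 of 8 measured were higher by 4-fold and 0 lower, and their summed signal was 8840 to 93823 in P8 cells. Their part in the subunit differences was not tested.

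Several genes whose products assemble GABA-A receptors and hold them at synapses were detected in most cells. Of 22 genes listed for receptor clustering and assembly, 21 were measured and 18 were detected in at least 1 cell. Gabarap, which binds gamma subunits in receptor transport, was detected in 24 cells, and Nlgn2, the adhesion protein of inhibitory synapses, in 23. Nsf, a membrane fusion factor, was detected in 21 cells, and Lhfpl4, which couples receptors to neuroligin, in 12. Gphn, the scaffold gephyrin, was detected in 9 cells, of which 5 had Gabra3, 4 Gabrb2, 3 Gabra2 and 2 Gabra4. Insyn1, Insyn2a and Plcl1 were detected in 0 cells. At P5 3 of the 21 were higher by 4-fold in pSynapsin cells, Gabarap by 2.43, Gabarapl2 by 2.61 and the palmitoyltransferase gene Zdhhc3 by 3.16, and 1 was lower, Ubqln1 at -2.34, where all-gene shares were 6.02% and 4.25%. With culture Hap1, which takes part in receptor transport, was higher by 2.18 and Gabarapl2 was at -2.08 (all genes 7.36% and 1.48%). Between reporters at P8 Gphn (2.85) and Gabarapl1 (3.06) were higher in pSynapsin cells, and Lhfpl4 (-3.10) and Shisa7 (-2.42) were lower, a share near that of all genes (11.0% and 9.98%). With age Zdhhc3 was higher by 2.97 and the transport adaptor gene Trak1 by 2.20, and 0 were lower (all genes 3.82% and 1.67%).

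Chloride transporters set whether GABA lowers or raises a neuron's voltage. Slc12a5, the chloride exporter KCC2, was detected in 22 cells, among them all 8 with Gabra3, 7 of 8 with Gabrb2 and 5 of 6 with Gabra2. Slc12a2, the importer NKCC1, was detected in 6 cells, of which 3 had Gabra3, 1 had Gabra2, 1 had Gabra4 and 1 had Gabrb2. Of 10 listed genes 9 were measured and 7 detected in at least 1 cell, and Slc12a4 and Slc12a7 were in 0. With culture Slc12a5 was higher by 2.09 and Clcn3 lower, at -2.48, where all-gene calls were 7.36% upward and 1.48% downward. Between reporters at P5 Clcn3 was at 3.58 and the kinase gene Oxsr1 at -3.33 (all genes 6.02% and 4.25%). Between reporters at P8 Stk39 was at 2.12 and Clcn2 at -2.14, 1 of 9 each way where 11.0% and 9.98% of all genes were called. With age 2 genes were higher, Wnk1 by 2.67 and Clcn3 by 2.08 (all genes 3.82%), and 0 lower.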

How the data were processed

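Per the labels' protocols, each fluorescent cell was lysed, reverse transcription was primed with oligo dT, and PCR of 35 cycles preceded hybridisation. The deposited values are signal intensity on a linear scale, 1 per probe set, and the submitters' processing notes name MAS5. Its version and a genome build are not given in the sources used here. The trimmed mean (2% off each end) was 500 on every array, so signals were not scaled again. No detection calls were used.

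Of 45101 probe sets, 34945 were assigned to 1 gene by the platform annotation, 932 to several and 9211 to none, and 13 controls with a gene name were left out. Each gene was read from its probe set of highest mean log2 signal over cells, at a floor of 200. The 7 genes and all lists were chosen with earlier results of these data known. Named genes were the 7 members, the other measured subunit genes, and the 3 best partners by phi of members detected in 3 to 23 cells. From the lists, genes detected in 3 or more cells or in 0 were named only in part. Iqsec3, detected in 20 cells, and Clptm1, in 18, were among those not described. List genes that passed 4-fold and single cells were named after their values were seen. Likeness and differences were checked on simulated data. Such a check does not show how either measure behaves for genes detected in as few cells as the 7. Alternatives changed the detection level, floor, probe set, scaling, filter, group summary and cells. Python 3.11.15 was used with pandas 2.3.3, numpy 2.4.6, matplotlib 3.10.9 and scipy 1.17.1.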

Additional observations from a re-analysis of the deposited data

Results flagged for a closer look

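Within groups of 4 to 10 cells, 9 of 21 pairs of gene and group held 1 cell far from the others by Dixon's ratio of gap to range. The rate of about 5% of groups passed by chance is for values without ties, and cannot be set beside this count. Most other cells lay at the floor, where values are equal, so any single positive cell stands apart. In the P5 group with no culture stated these were cell A7 for Gabra3 (signal 7158), B3 for Gabrb1 (10661) and B2 for Gabrb2 (14959). Among cultured P5 pNdrg4 cells they were C6 for Gabrg1 (2838) and D5 for Gabrg3 (660, below the detection level). Among P5 pSynapsin cells they were E1 for Gabra2 (1861), E4 for Gabra4 (10552.5) and for Gabrb1 (353, below the detection level), and E2 for Gabrb2, the one low cell (13.0).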

How the results depend on the processing

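Of 670 values under other settings, 620 moved by less than the spread over cells (counts by less than 1.5 times) and 50 moved further. Leaving out 1 cell cannot shift a difference of means by more than that spread, so those differences counted as unmoved by construction. Gabrb2 at P8, 0.31 as reported and -2.92 without B3, was among them. The 620 are therefore no measure of stability. Of 483 subunit differences under other settings 9 changed sign, 8 of them without 1 cell, and 0 of these were past 4-fold as reported; they concern Gabra2 (-0.27 with culture and 0.17 at P5, without C6), Gabrb2 at P8 (-2.92 and -2.61, without B3 or A1) and, with age, Gabrb2 (0.72 to 1.23), Gabra4 (-0.72) and Gabrb1 (-0.10). With each gene read as the median of its probe sets, cells with any subunit gene fell from 18 to 10, the median per cell from 1 to 0, cells with alpha and beta genes from 6 to 2, Gabra2 cells from 6 to 0, Gabra3 cells from 8 to 5 and Gabrb2 cells from 8 to 4. At a detection level of 2000, 3 cells had alpha and beta genes. Genes past 4-fold with culture were 1 in place of 0 at a floor of 50 and with group medians (Gabra3 both times), and 0 to 1 when single cells were left out. At P5 between reporters they were 1 in place of 2 at a floor of 500, and 1 to 2 without single cells. At P8 they were 3 in place of 1 at a floor of 50, 0 at a floor of 500, 2 with the highest probe set, 0 with the median over probe sets, and 1 to 4 without single cells. With age they were 1 in place of 0 at a floor of 50, and 0 to 1 without single cells. Lower floors tend to lengthen differences and higher floors to shorten them by construction, and the cause of the other moves was not tested. With no filter on low genes the share of all genes past 4-fold was 4.17% for culture, 4.84% and 10.4% for the reporter at P5 and P8, and 2.58% for age. No paired analysis was possible because replicate numbers only name cells and the result comes from no test.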

Other observations

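Glycine receptors, the other inhibitory chloride channels of amacrine cells, were measured on the same arrays. Of 7 listed glycine receptor and transporter genes 5 were detected, among them Glra2 in 13 cells, the shared beta subunit gene Glrb in 9 and Glra3 in 7, while Glra1 and Glra4 were detected in 0. Past 4-fold were Slc6a9 with culture (2.59, where 7.36% of all genes were higher), Glra3 with age (2.82, all genes 3.82%), and Glra3 and Glrb at P8 in pSynapsin cells (2.83 and 2.37, all genes 11.0%), the last from 2 cells a group.

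Among genes of GABA synthesis, release, uptake and breakdown 6 of 7 measured were detected, Slc32a1 in 22 cells, Abat in 16, Gad2 in 14, Gad1 in 11, Slc6a11 in 9 and Aldh5a1 in 7, and Slc6a13 was detected in 0. With culture Slc32a1 was higher by 2.18 and Gad1 was at -2.66 (all genes 7.36% and 1.48%), at P5 Gad2 was at -2.45 in pSynapsin cells (all genes 4.25%), and 0 passed at P8 or with age. Gabbr1, a GABA-B receptor gene, was detected in 20 cells and its auxiliary subunit genes Kctd8 and Kctd16 in 3 and 0.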
